A study of Mus musculus with 9 samples.

Results

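Interferon response genes are described here as a set of 40 mouse genes that are known to be switched on by type I or type II interferon. They were chosen by symbol, with no threshold on their values in these libraries but with earlier results of these data known. All 40 were listed among the 16367 genes of the table for sorted retinal cells, all 40 among the 17035 genes of the table for cultured Müller glia, and all 40 passed the filter on low values that left 14403 genes to test in the sorted cells. The cells were prepared as Müller glia, the glial cells that span the retina, from WT mice. In the sham group (3 libraries) the cornea was cut and no oil was given, and in the ocular hypertension group (OHT, 3 libraries) 1.2 µL of silicone oil was placed in the front chamber of both eyes, a model of chronic, mildly raised eye pressure. Each sorted library pooled 4 neural retinas, whose cells were captured with beads through the glutamate transporter GLAST, which retinal astrocytes carry too. The sources used here give neither the age of these animals nor the time after the oil. The third group consists of 3 untreated primary cultures, grown in serum from the retinas of C57BL/6J pups at postnatal days 8 to 10 and passaged. Nothing in the labels names a batch, and p-values measure only the spread between these pooled samples.

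Interferons are secreted proteins that cells release on sensing viral or misplaced nucleic acid. Type I interferon (the alpha and beta kinds) binds the receptor chains Ifnar1 and Ifnar2, whose kinases Jak1 and Tyk2 activate transcription factors that include Stat2; with Irf9 it is part of a complex that binds a DNA sequence called the interferon-stimulated response element. Type II interferon (gamma) acts through Ifngr1 and Ifngr2 and leads to binding at the gamma-activated site. In the retina microglia, the resident macrophages, and Müller glia can both respond, and induced genes code for proteins that bind foreign RNA, stop viral entry and exit, tag proteins with the ubiquitin-like Isg15, or feed back on the pathway.

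The unit below is the deposited normalised read count, a gene's reads divided by 1 factor per library, unless a value is given in ppm (reads per 1000000 reads of the library's total) or in ppm per kb of transcript, the scale on which levels of different genes are compared. Where genes of a list, or sequences to print, were picked by plain ppm, this is said, and it is no ranking of expression between genes. Depth was 37.8 to 53.6 M (1000000) reads in the sorted libraries and 66.3 to 76.7 M in the cultures, so that 1 read is worth 0.013 to 0.0264 ppm. No replicate pair agreed within sampling noise. Markers of other cells were present in the sorted libraries: 14 of 15 microglia and macrophage markers were listed, none at 0 in any library, and summed to between 24548 and 38470 ppm in sham and between 29886 and 40462 ppm in OHT, against 2087 to 9602 ppm over both groups for 13 Müller glia markers. In every sorted library the microglia sum was thus above the sum of the cells named in the label. In the cultures the 13 Müller glia markers summed to 1011 to 1207 ppm, with Prdx6 (703 ppm) and Dkk3 (215 ppm) high and Kcnj10, Rlbp1 and Aqp4 at 0.318, 2.24 and 2.57 ppm on average, and the microglia markers summed to 96.1 to 148 ppm, of which Tmem119 was at 59.6 ppm.

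The interferon-stimulated response element was searched for in the promoters of 32 members. These were matched by symbol in a RefSeq table (build GRCm38.p6) of 250 bases before to 50 bases after each start. The other 8 (Oas2, Usp18, Rtp4, Mx1, Ifi27l2a, Parp9, Parp14 and Zbp1) had no entry. The core searched was GAAANNGAAA, or TTTCNNTTTC on the other strand, where N is any base. It was found in 16 of the 32 members (50%) and in 3.99% of the 27025 genes of the table. The gamma-activated site, TTCNNNGAA, reads the same on both strands and was found in 10 members (31.2%) and 9.55% of genes, and 6 members held both. In 3 members, Ifitm3, Eif2ak2 and Ifih1, the response element lay after the start only. A match describes these letters and is not evidence of binding. To let the motif and its place be seen, 60 bases that hold the match closest to the start are shown for 6 members, picked by their mean in plain ppm among those with an element before the start. The search fixes all but the 2 middle letters of each match. Each is printed 5′ to 3′ in the direction of the gene, with matches in capitals.
Bst2, chr8:71537562-71537621, minus strand: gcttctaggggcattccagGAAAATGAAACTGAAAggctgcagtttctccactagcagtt
Ifit3, chr19:34583382-34583441, plus strand: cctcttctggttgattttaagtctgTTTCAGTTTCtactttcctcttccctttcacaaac
Oas1a, chr5:120907526-120907585, minus strand: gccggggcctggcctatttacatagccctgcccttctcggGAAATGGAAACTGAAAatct
Igtp, chr11:58199496-58199555, plus strand: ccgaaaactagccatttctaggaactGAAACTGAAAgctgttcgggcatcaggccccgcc
Gbp7, chr3:142530258-142530317, plus strand: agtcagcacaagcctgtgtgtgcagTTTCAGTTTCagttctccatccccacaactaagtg
Isg15, chr4:156200850-156200909, minus strand: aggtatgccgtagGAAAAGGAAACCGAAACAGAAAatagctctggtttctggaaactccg

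In 5 of these 6 stretches the core closest to the start reads GAAACTGAAA or, on the other strand, TTTCAGTTTC, and in Isg15 it reads GAAACAGAAA. Bst2 and Oas1a hold 2 overlapping matches and Isg15 holds 3. The elements begin 124 bases before the start in Bst2, 122 in Ifit3, 66 in Isg15, 53 in Gbp7, 34 in Igtp and 14 in Oas1a. These 6 genes code for a membrane tether of budding virus, an RNA-binding protein, an enzyme that makes a messenger of RNA detection, a pair of GTPases and a ubiquitin-like tag.

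The comparison of OHT with sham asked whether raised eye pressure moves these genes in the sorted cells. At an adjusted p under 0.05 (limma, Benjamini-Hochberg over all genes tested) 0 of 40 members passed, where the share of all genes called was 0%, and the smallest adjusted p of a member was 0.332. At an unadjusted limma p under 0.05 there were 7 members, all 7 higher in OHT and 0 lower: Ifi27l2a, Ifitm3, Samd9l, Rsad2, Bst2, Sp100 and Isg15. Of all genes 5.37% were past that threshold and higher, and 6.3% were past it and lower. edgeR and DESeq2, run on reads recovered from the values, called 0 members too, with 5 and 6 of them at an unadjusted p under 0.05, all higher, against 5.27% of all genes for edgeR and 7.28% for DESeq2. DESeq2 called 1.8% of the genes to which it gave an adjusted p, and its smallest adjusted p among the members was 0.0924. In bulk samples fewer cells of a type and less RNA per cell cannot be told apart.

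In direction, 32 of 40 members were higher in OHT (limma log2 difference above 0), against 45.2% of all genes. The median log2 difference was 0.38 over the members and -0.12 over all genes. These medians were -0.07 and -0.58 when each library was scaled to its microglia markers. That scaling was chosen after seeing the data, and the markers did not move alike, with log2 differences from -0.46 to 1.64. All 3 OHT values lay above all 3 sham values for 6 members, Rsad2, Ifitm3, Ifi27l2a, Samd9l, Eif2ak2 and Sp100, against 9.26% of all genes. The reverse held for 0 members, against 9.18% of all genes. These counts, and those of overlap below, are of the deposited values. In ppm Rsad2 was at 38.1 in OHT 1 and 38.7 in sham 3, so its groups overlapped. Sp100 was at 101 ppm in OHT 1 and 121 ppm in sham 1 and overlapped too. Ifitm3, Ifi27l2a, Samd9l and Eif2ak2 stayed apart in ppm.

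**Figure D1:**
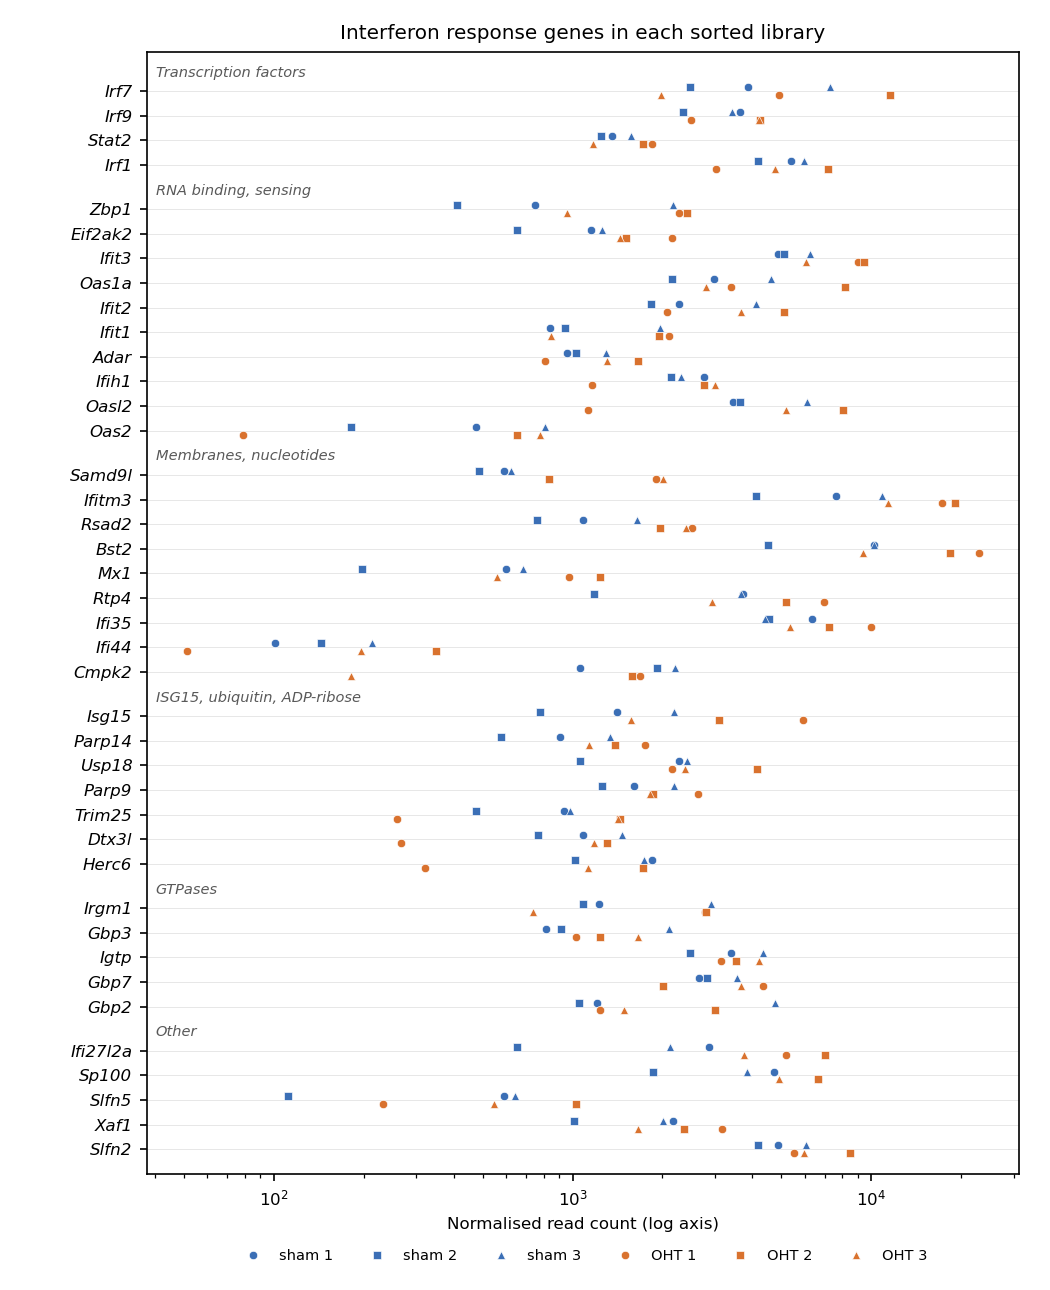
Normalised read count (log axis) of each of the 40 genes in the 3 sham (blue) and 3 OHT (orange) libraries, with the replicate number as the point's shape and the genes grouped by role. Sham 2 (blue square) holds the lowest value of 22 genes and OHT 2 (orange square) the highest of 18.

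The transcription factors and the GTPases had the lowest medians of the 6 role groups, between which no test was made. For the counts in each role group, the shares over all genes were 45.2% higher, 5.37% higher at an unadjusted limma p under 0.05 and 9.26% higher without overlap. For the transcription factors the median log2 difference was 0.18 over 4 genes, 3 of them higher, 0 at an unadjusted limma p under 0.05 and 0 without overlap. Irf7, which amplifies interferon production, was at 3865, 2468 and 7283 in sham and at 4912, 11555 and 1984 in OHT. The highest and the lowest of its 6 values were both OHT libraries, and the difference on the log2 scale was 0.23 (SE 0.59, limma adjusted p = 0.879). Irf1, an early factor downstream of gamma interferon, was at 5368, 4183 and 5968 in sham and at 3019, 7190 and 4750 in OHT. Its groups overlapped in the same way, with a log2 difference of -0.13 (SE 0.38, limma adjusted p = 0.898). Both are the highest of the group per length, Irf1 at 56 and Irf7 at 53.8 ppm per kb. Irf9 and Stat2, which bind the response element in a complex, had log2 differences of 0.21 and 0.16.

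Genes for RNA binding and sensing had a median log2 difference of 0.39, with 7 of 10 higher, 0 at an unadjusted limma p under 0.05 and 1 higher without overlap (9.26% of all genes). That gene is Eif2ak2, the kinase PKR, which halts translation when it meets double-stranded RNA. It was at 1152, 653 and 1252 in sham and at 2150, 1510 and 1443 in OHT. The lowest OHT library lay above the highest sham library by less than the spread within either group, and the log2 difference of 0.77 (SE 0.43) had a limma adjusted p of 0.493. Ifit3, a partner of the cap-binding Ifit1 and the highest of these genes per length (87.1 ppm per kb), was at 4862, 5102 and 6231 in sham and at 9016, 9463 and 6034 in OHT. OHT 1 and OHT 2 were above all sham libraries and OHT 3 was within their range, with a log2 difference of 0.58 (SE 0.32, limma adjusted p = 0.497).

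Oas1a, an enzyme that makes the messenger that activates RNase L, was at 2980, 2148 and 4630 in sham and at 3392, 8171 and 2803 in OHT. Only OHT 2 stood above the sham range, and the difference on the log2 scale was 0.46 (SE 0.46, limma adjusted p = 0.679). Ifih1, the RNA sensor MDA5, was at 2765, 2144 and 2301 in sham and at 1165, 2763 and 3000 in OHT. Here OHT 1 was the lowest of all 6 libraries, and the log2 difference of -0.17 (SE 0.43, limma adjusted p = 0.879) became 0.27 without it. Ifit1, Ifit2, Adar and Zbp1 had log2 differences of 0.38, 0.40, 0.15 and 1.00, and those of Oas2 and Oasl2 were -0.26 and -0.24 and became positive without OHT 1 or without sham 3. Ifit3 shares 97.8% of bases over 97.4% of its transcript with Ifit3b, and Oas1a 97.6% over 98.7% with Oas1g (GENCODE M21 transcripts), so the values of both pairs depend on how shared reads were counted, which is not given in the sources used here.

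**Figure D2:**
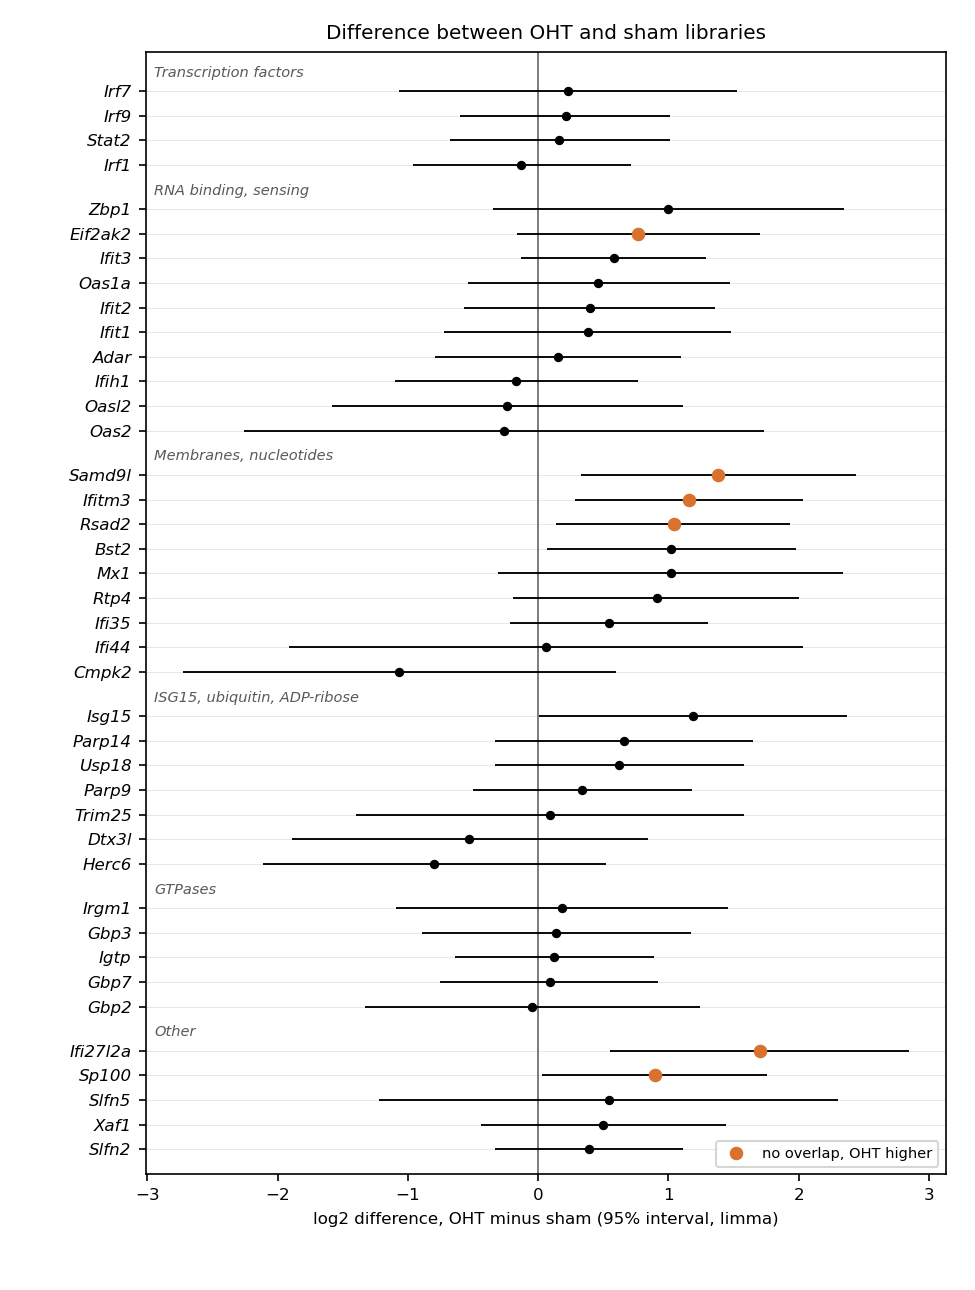
Difference between OHT and sham on the log2 scale (x axis) for each of the 40 genes, as the limma estimate with its 95% interval, grouped by role and ordered within a role. Orange points mark the 6 genes whose groups do not overlap in the deposited values. The 7 intervals that lie above 0 belong to the 7 genes at an unadjusted limma p under 0.05.

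The antiviral proteins of membranes and of nucleotide supply had the highest median of the 6 role groups, a log2 difference of 1.02, with 8 of 9 genes higher. Of these, 4 were at an unadjusted limma p under 0.05 (5.37% of all genes higher) and 3 without overlap (9.26% of all genes higher). Ifitm3, which blocks fusion of virus with the endosome, was at 7594, 4111 and 10869 in sham and at 17215, 19105 and 11412 in OHT. All OHT libraries were above all sham libraries, OHT 3 only just above sham 3. The difference on the log2 scale was 1.16 (SE 0.40, limma adjusted p = 0.343, unadjusted p = 0.0144).

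Rsad2, the enzyme viperin, which makes a chain-ending nucleotide, was at 1084, 761 and 1648 in sham and at 2504, 1963 and 2399 in OHT. On this scale, though not in ppm, no OHT value lay below a sham value, with a log2 difference of 1.04 (SE 0.41, limma adjusted p = 0.385). Samd9l was at 588, 488 and 623 in sham and at 1903, 832 and 2009 in OHT. The 3 sham libraries lay close together and OHT 2 stood nearest to them, and the difference on the log2 scale was 1.38 (SE 0.48, limma adjusted p = 0.343). Bst2, the protein tetherin, was at 10217, 4499 and 10204 in sham and at 22917, 18379 and 9373 in OHT. OHT 3 fell within the sham range, so the groups overlapped despite a log2 difference of 1.02 (SE 0.44, limma adjusted p = 0.407, unadjusted p = 0.0381).

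Cmpk2, a mitochondrial nucleotide kinase that supplies the substrate of Rsad2, went the other way from its neighbour. It was at 1057, 1920 and 2209 in sham and at 1687, 1586 and 182 in OHT. The single value in OHT 3 sets the log2 difference of -1.07 (SE 0.76, limma adjusted p = 0.569), which was -0.01 without that library, and Cmpk2 had the widest range of the 40 members over the 6 libraries, 12.1-fold. Rtp4, Mx1, Ifi35 and Ifi44 had log2 differences of 0.91, 1.02, 0.54 and 0.06, and Ifi44 was at -0.01 with TMM factors. Ifitm3 shares 91.6% of bases over 52.5% of its transcript with Gm6885.

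Genes of Isg15, ubiquitin and ADP-ribose had a median log2 difference of 0.34, with 5 of 7 higher. Of these, 1 was at an unadjusted limma p under 0.05 (5.37% of all genes higher) and 0 were without overlap (9.26% of all genes higher). Isg15, the ubiquitin-like protein itself, was at 1410, 779 and 2193 in sham and at 5925, 3087 and 1567 in OHT. OHT 1 and OHT 2 were above all sham libraries and OHT 3 was within their range, with a log2 difference of 1.19 (SE 0.54, limma adjusted p = 0.424, unadjusted p = 0.0476). Usp18, which takes Isg15 off its targets and damps the receptor, was at 2265, 1063 and 2424 in sham and at 2161, 4141 and 2383 in OHT. Sham 2 was low and OHT 2 high among otherwise close values, and the difference on the log2 scale was 0.62 (SE 0.44, limma adjusted p = 0.564).

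Herc6, the mouse ligase for Isg15, was at 1848, 1018 and 1733 in sham and at 321, 1716 and 1128 in OHT. OHT 1 was the lowest library, and the log2 difference of -0.80 (SE 0.60, limma adjusted p = 0.59) was -0.09 without it. Dtx3l, a ubiquitin ligase that works as a complex with Parp9, was at 1085, 768 and 1468 in sham and at 267, 1300 and 1180 in OHT. Again OHT 1 alone was low, and the log2 difference of -0.53 (SE 0.62, limma adjusted p = 0.725) became 0.21 without it. Parp14, Parp9 and Trim25 had log2 differences of 0.66, 0.34 and 0.09. Isg15 shares 95.2% of bases over 63.8% of its transcript with AC151275.1.

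The interferon-induced GTPases, which take part in defence against microbes held in vacuoles, had a median log2 difference of 0.12, with 4 of 5 higher, 0 at an unadjusted limma p under 0.05 and 0 without overlap. Igtp was at 3387, 2467 and 4339 in sham and at 3145, 3533 and 4222 in OHT. All OHT values lay within the sham range, and the log2 difference was 0.12 (95% interval -0.64 to 0.89, limma adjusted p = 0.89). Gbp2 was at 1210, 1050 and 4763 in sham and at 1235, 2994 and 1483 in OHT. Sham 3 was the highest library, and the log2 difference of -0.05 (SE 0.59, limma adjusted p = 0.978) became 0.65 without it. Gbp3, Gbp7 and Irgm1 had log2 differences of 0.14, 0.09 and 0.18, each of which changed sign when at least 1 library was left out.

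All 5 of the other induced genes were higher in OHT, with a median log2 difference of 0.54. Of these, 2 were at an unadjusted limma p under 0.05 (5.37% of all genes higher) and 2 without overlap (9.26% of all genes higher). Ifi27l2a, a small membrane protein, had the smallest unadjusted p of the 40. It was at 2863, 651 and 2114 in sham and at 5191, 6997 and 3742 in OHT. The OHT libraries were all above the sham libraries, and the estimate of 1.70 (log2 scale, SE 0.52, limma adjusted p = 0.332, unadjusted p = 0.00745) was 1.06 without sham 2, its lowest library. Ifi27l2a shares 90.7% of bases over 51% of its transcript with Ifi27l2b.

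Sp100, a protein of nuclear bodies, was at 4713, 1862 and 3833 in sham and at 6631, 6655 and 4928 in OHT. On this scale, though not in ppm, the groups were apart by the small gap between sham 1 and OHT 3. The difference on the log2 scale was 0.90 (SE 0.40, limma adjusted p = 0.418). Slfn2, a schlafen protein of lymphoid and myeloid cells, was at 4868, 4192 and 6069 in sham and at 5512, 8508 and 5935 in OHT. Only OHT 2 lay outside the sham range, with a log2 difference of 0.39 (SE 0.33, limma adjusted p = 0.626). Xaf1 and Slfn5 had log2 differences of 0.50 and 0.54.

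The directions were unevenly spread over the libraries. On the deposited scale sham 2 held the lowest value of 22 members and the highest of 0. OHT 2 held the highest of 18 and OHT 1 the highest of 12. A read counted as 1.382 units in OHT 1 and as 0.801 to 1.033 units in the other sorted libraries. In ppm, of these 12 only Isg15 (90 ppm) was highest in OHT 1. Bst2, for example, was at 348 ppm there and at 417 ppm in OHT 2. The median deviation of the members from their own mean was -0.17, -0.70 and 0.22 on the log2 scale in sham 1, 2 and 3 and 0.40, 0.58 and 0.08 in OHT 1, 2 and 3, where the same median over all genes stayed between -0.05 and 0.09. Without sham 2 the members' median log2 difference was 0.15 and 1 member was at an unadjusted limma p under 0.05; without OHT 2 these were 0.18 and 3. Without OHT 3 they were 0.61 and 10, and without sham 3 they were 0.64 and 7.

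On the deposited scale OHT 1 held the lowest value of 9 members as well as the highest of 12. Across the 40 members the Spearman correlation of its deviation with transcript length was -0.45, and it was -0.28 in OHT 2, 0.46 in OHT 3 and 0.21 to 0.30 in the sham libraries. Over 13530 genes the same correlation was -0.25 in OHT 1, -0.09 in OHT 2, 0.06 in OHT 3 and 0.10 to 0.19 in sham. Over the members the correlation with GC content was 0.11, -0.21 and -0.08 in sham 1, 2 and 3 and 0.18, 0.25 and -0.37 in OHT 1, 2 and 3. Over the 13530 genes it was 0.03, 0.10 and 0.18 in sham and -0.08, 0.14 and -0.21 in OHT. These are descriptions across genes that share a library, and the part of length or GC content in any difference was not tested.

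Neighbouring genes that are usually induced together show where single libraries depart; these pairs were picked after their values were seen. The log2 ratio of Rsad2 to Cmpk2, which lie next to each other, was 0.04, -1.33 and -0.42 in sham and 0.57, 0.31 and 3.71 in OHT. OHT 3 stood farthest from the other libraries. The log2 ratio of Dtx3l to Parp9, whose RefSeq entries overlap, was -0.57, -0.71 and -0.57 in sham and -3.30, -0.52 and -0.62 in OHT. In 5 of 6 libraries this ratio stayed within a narrow band, and OHT 1 departed from it. How reads from the shared stretch were assigned, and whether strand was used, is not given in the sources used here.

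**Figure D3:**
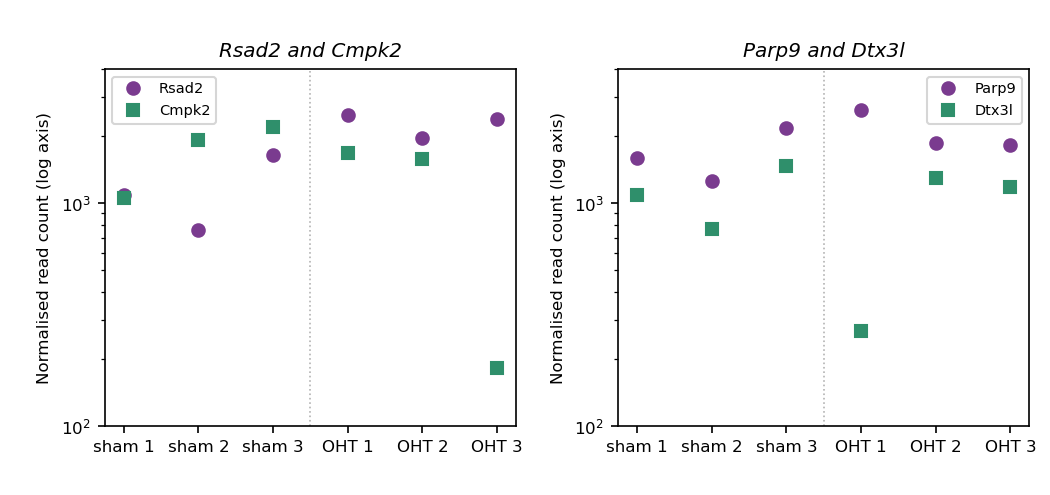
Normalised read counts (log axis) of Rsad2 with Cmpk2 and of Parp9 with Dtx3l in each sham and OHT library, left and right of the dotted line. Cmpk2 is low in OHT 3 (182) and Dtx3l in OHT 1 (267), while their partners are not.

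Genes that make, sense and transmit the interferon signal were read from lists, and 0 of them passed the adjusted threshold (limma). Of 12 interferon genes 3 were listed in the sorted table. Ifnb1 was at 229, 54.4 and 89.9 in sham and at 261, 248 and 163 in OHT, so that the groups overlapped (log2 difference 1.07, SE 0.82, limma adjusted p = 0.596). Ifng was at 0 in 4 of the 6 libraries, with 103 in sham 3 and 9.88 in OHT 2, and Ifnk had reads in sham 2 only. Ifnb1 and Ifng were not listed in the culture table.

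Of 10 receptor and JAK-STAT genes tested, 7 were higher (median log2 difference 0.22), against 45.2% of all genes. At an unadjusted limma p under 0.05 there were 0 in either direction, and 2 were higher without overlap (9.26% of all genes). Those 2 are Ifnar1, at 2636, 3194 and 4133 in sham and at 6114, 4652 and 4371 in OHT, and Ifngr1, at 21858, 19185 and 19037 in sham and at 39235, 22926 and 28143 in OHT. On the deposited scale both were higher in all OHT libraries, with log2 differences of 0.61 and 0.55 and limma adjusted p-values of 0.491 and 0.51. In ppm the groups of both genes overlapped. Il10rb, a receptor chain shared with interleukin receptors, was at 193 ppm on average and had a log2 difference of 0.58.

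Of 18 genes of nucleic acid sensing and interferon induction, 14 were higher (median 0.30), against 45.2% of all genes. At an unadjusted limma p under 0.05 there were 2, both higher (5.37% of all genes). Tlr9, a receptor for DNA, was at 219, 145 and 129 in sham and at 707, 340 and 386 in OHT, and Irf2 was at 2747, 2481 and 2654 in sham and at 6158, 3550 and 4682 in OHT. Neither gene overlapped between groups, with log2 differences of 1.50 and 0.83 and limma adjusted p-values of 0.417 and 0.388. Irf8, Sting1 and Irf5, picked by plain ppm (443, 172 and 151), had log2 differences of -0.01, 0.57 and 0.10. Irf8 is a factor of the macrophage lineage.

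Of 6 negative regulators 3 were higher (median 0.19), against 45.2% of all genes, with 0 at an unadjusted limma p under 0.05. Ptpn6, Pias1 and Socs3, picked by plain ppm, had log2 differences of 0.46, 0.51 and -0.08. Socs1, which blocks the receptor kinases, was at 454, 241 and 187 in sham and at 66.3, 405 and 4.81 in OHT, with a log2 difference of -2.34 (SE 1.33, limma adjusted p = 0.501) that rests on low values in OHT 1 and OHT 3. Isg20, an exonuclease that was placed in this list, had a log2 difference of 1.10 (limma adjusted p = 0.468).

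A further 64 induced genes outside the 40 had a median log2 difference of 0.51, with 45 higher, 10 higher at an unadjusted limma p under 0.05, 0 lower, and 9 without overlap, all higher. The shares over all genes were 45.2% higher, 5.37% higher at that p and 9.26% higher without overlap. Ifitm2, a relative of Ifitm3, was at 2485, 2217 and 5919 in sham and at 14070, 5663 and 9426 in OHT, with OHT 2 below sham 3 and a log2 difference of 1.51 (SE 0.46, limma adjusted p = 0.332, unadjusted p = 0.00683). Ifi209, of the family of DNA-binding proteins with pyrin domains, was at 1348, 923 and 1965 in sham and at 2752, 3583 and 2566 in OHT. Its groups did not overlap on the deposited scale but did in ppm, and its log2 difference was 1.12 (SE 0.40, limma adjusted p = 0.351). B2m, the light chain of MHC class I, the galectin-binding protein Lgals3bp and the galectin Lgals9, picked by plain ppm, had log2 differences of 1.07, 0.48 and 0.54.

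Markers of other cells also differed between these libraries. Of the 14 microglia markers 11 were higher in OHT (median log2 difference 0.24), against 45.2% of all genes. All OHT values lay above all sham values for 6 of them, against 9.26% of all genes. Among these 6 were Tyrobp (1.64, limma adjusted p = 0.332) and Aif1 (1.46, limma adjusted p = 0.332), while Cx3cr1, P2ry12 and Tmem119 had log2 differences of 0.05, 0.02 and -0.46. Of 13 Müller glia markers 0 were higher (median -0.84) and of 12 rod markers 0 were higher (median -2.23). Rod markers summed to 2685, 24803 and 20209 ppm in sham and to 960, 1074 and 3348 ppm in OHT. Monocyte and neutrophil markers (7 of 8 listed, at 0 in up to 2 per library) summed to 188 to 277 ppm in sham and 174 to 243 ppm in OHT, a sum made up mostly of Csf3r (188 ppm on average, log2 difference 0.05). Of the 7, 5 were higher in OHT, and 2 were higher at an unadjusted limma p under 0.05 (5.37% of all genes). Those are the monocyte receptor Ccr2, at 54.8, 73.8 and 1541 in sham and at 598, 1543 and 1272 in OHT (log2 difference 2.51, limma adjusted p = 0.407), and S100a8, at 0, 0 and 2.87 in sham and at 12.4, 23 and 30.5 in OHT. Lymphocyte markers (8 of 8, at 0 in 2 to 6 per library) summed to 31.1 to 48.3 ppm in sham and 38.2 to 73 ppm in OHT, most of it Cd79b (43.3 ppm on average), while the median log2 difference of the 6 tested was -0.92 with 4 lower. The other B cell markers, Cd79a and Ms4a1, averaged 0.268 and 0.479 ppm. Which cells carried Cd79b or Csf3r was not tested. Of the T and NK cell markers, Nkg7 (161), Cd8a (22) and Cd3d (9.57) had reads in sham 3 only and Cd3e and Cd3g were highest there, the library that also held most Ifng. The 40 members summed to 2573, 1735 and 3015 ppm in sham (2441 ± 650, SD, n = 3) and to 2237, 3976 and 2958 ppm in OHT (3057 ± 874), so that on this scale the groups overlapped with OHT 1 below sham 1 and sham 3. Sham 2, the library with the lowest sum of members, had the highest sums of Müller glia and rod markers. The part of the cell makeup in the members' differences was not tested.

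**Figure D4:**
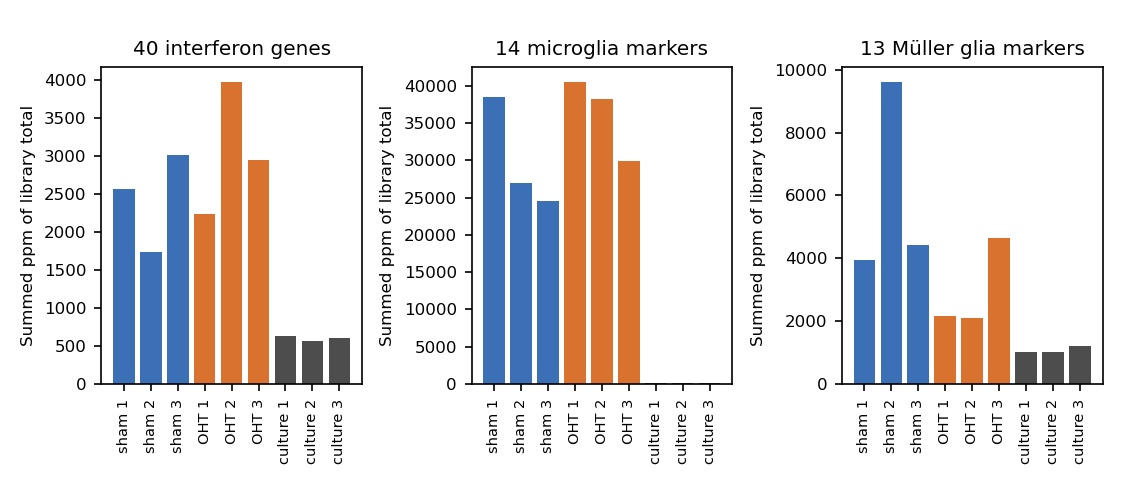
Summed level in ppm of the library total of the 40 interferon response genes, 14 microglia and macrophage markers and 13 Müller glia markers, with 1 bar per library and each panel on its own axis from 0. The members sum to 573 to 637 ppm in the cultures and to 1735 to 3976 ppm in the sorted libraries.

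The primary cultures give the level of the same genes in passaged cells without stimulation. The tables were normalised separately, so levels across them are in ppm and no test was made. The 40 members summed to 637, 573 and 605 ppm (605 ± 31.9, SD, n = 3). Their median level was 4.65 ppm in the cultures and 47.4 ppm in the sorted libraries, and 32 of 40 were higher in every sorted library than in every culture, as were 16.5% of the 15438 genes listed in both tables. For the 38 members with more than 3 culture reads in all, the ratio of the sorted to the culture mean ran from 0.561 to 1373 with a median of 13.2. The median was 0.858 over all shared genes with any culture read, a looser limit than that for the members.

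For description the members were split at culture means of 1 and 10 ppm. These are plain ppm and no ranking of expression between genes. Those below 1 ppm were 11: Oas1a (0.182 ppm), Oas2, Rsad2 (0.088 ppm), Mx1, Ifi27l2a (0.0578 ppm), Ifi44, Zbp1, Sp100, Cmpk2, Slfn2 and Slfn5. Mx1 had 3 reads over the 3 cultures and Slfn5 had 1, so no ratio is given for them. Ifi27l2a had 13 culture reads and was at 171 ppm per kb in the sorted libraries, the third highest of the members there. For Ifi27l2a and 6 other members the sorted mean was over 100 times the culture mean.

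Another 14 members were between 1 and 10 ppm in culture and 15 were at 10 ppm or more. Ifitm3 was the highest in both preparations per length, at 286 ppm per kb in the cultures and 381 ppm per kb in the sorted libraries. In the cultures it stood at 225, 163 and 194 ppm (194 ± 31.2, SD, n = 3), within the range of the sorted libraries. Ifi35 (34.4 ppm per kb), Irgm1 (27.1), Bst2 (13.7) and Eif2ak2 (12.4) came next in the cultures, whereas Bst2 (343), Ifi27l2a (171), Ifi35 (103) and Ifit3 (87.1) followed Ifitm3 in the sorted libraries. Neighbours in these orders were not tested against each other.

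Eif2ak2 was the member that stood lower in every sorted library than in every culture, at 53.7 ± 3.66 ppm in the cultures (SD, n = 3). The other 7 whose ranges met were Ifitm3, Trim25, Dtx3l, Gbp2, Irgm1, Herc6 and Adar. Among these are Adar, an RNA-editing enzyme, at 23.7 ± 2.58 ppm and Irgm1 at 61.2 ± 22.3 ppm in the cultures. The signal transducers were also present there, with Stat2 at 21 ppm, Irf9 at 15.6 ppm and Ifnar1 at 82.5 ppm on average. The microglia markers at 96.1 to 148 ppm in the cultures and the pericyte and smooth muscle markers at 8344 to 13455 ppm, led by Acta2, stand beside these levels, and their part in the difference between preparations was not tested.

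**Figure D5:**
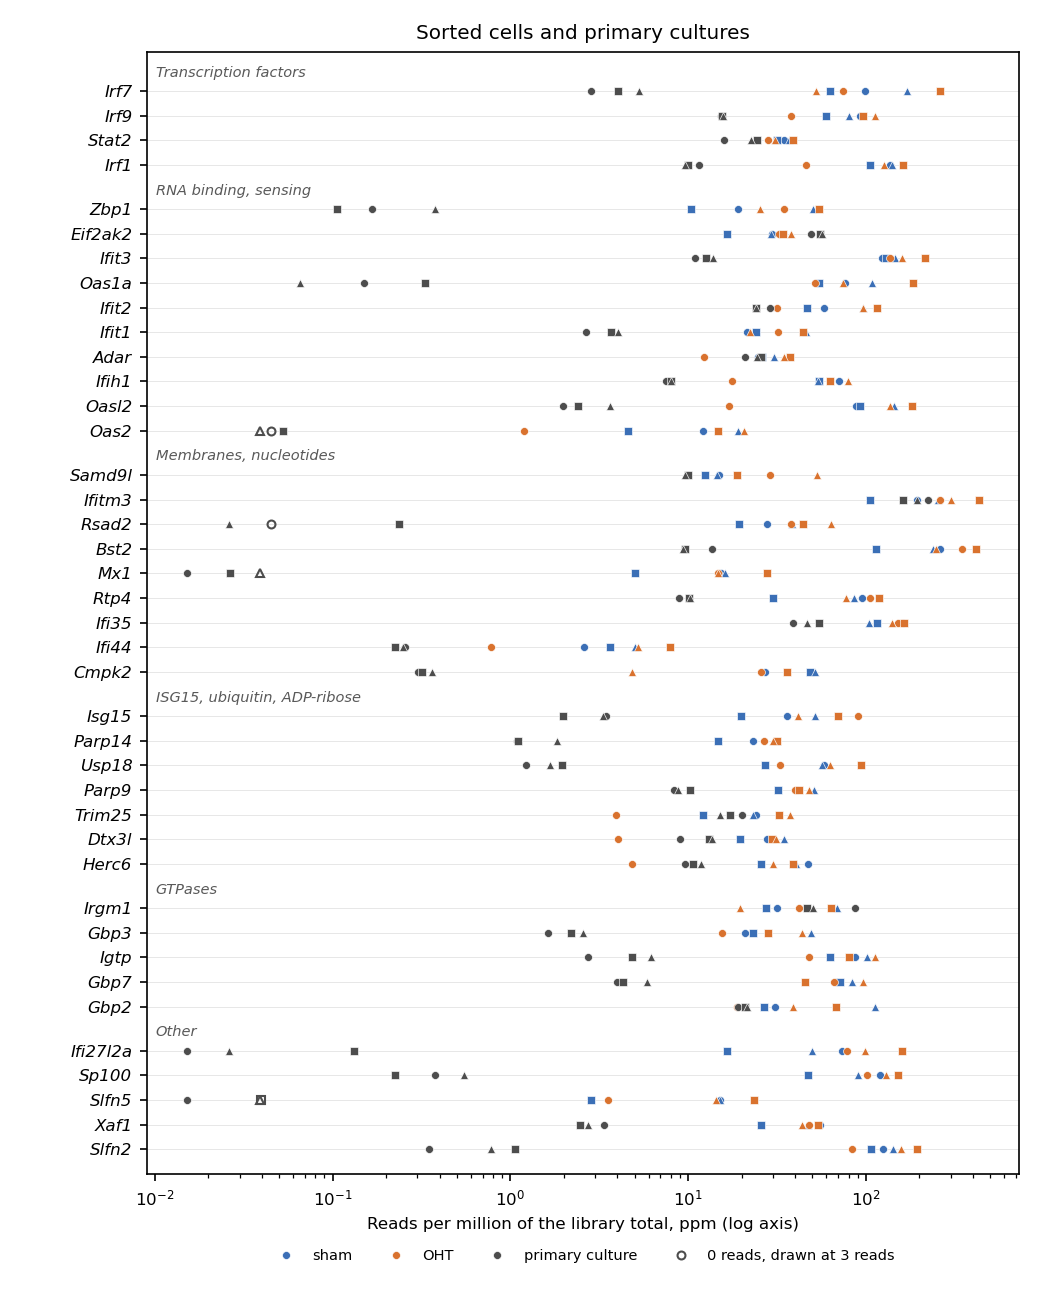
Level of each gene in ppm of the library total (log axis) in the sham (blue), OHT (orange) and primary culture (grey) libraries, with shapes for the replicate number and open symbols for 0 reads drawn at the level of 3 reads. Ifi27l2a, Oas1a and Rsad2 lie far apart between preparations, while Ifitm3, Adar and Irgm1 overlap.

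Members with and without a response element in the promoter window were set side by side. The 16 with the element had a median log2 difference between OHT and sham of 0.42, with 14 higher, and a median of 6.28 ppm in the cultures. The 16 without it had a median of 0.18, with 11 higher, and 10.1 ppm in the cultures, and the 8 with no promoter entry had 0.79, with 7 higher, and 0.779 ppm. Of the 7 members at an unadjusted limma p under 0.05, Ifitm3, Rsad2, Bst2 and Isg15 held the element, Samd9l and Sp100 did not in this window, and Ifi27l2a had no entry. No test was made between these sets.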

How the data were processed

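RNA of 9 libraries was sequenced as paired ends after template-switching amplification of the cDNA, per the labels' protocols. The submitters' processing notes name bcl2fastq 2.20, Trim Galore 0.6.6, FastQC 0.11.9, STAR 2.7.1a and mm39; the sources used here give no counting program, annotation or normalization tool. The deposited signal is 1 normalised value per gene and library, a count divided by 1 factor per library. Dividing by each column's smallest step recovered whole reads for 100% of values (tolerance 0.05); in primary culture 3 the step, 1.007, is too close to 1 for a check. The files proved to hold such values and the planned test was kept.

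The test used genes whose mean over the 6 sorted libraries reached 10, fitted with limma 3.58.1 (lmFit, eBayes with trend, R 4.3.3) on log2(value + 1), which understates changes of low genes, with Benjamini-Hochberg adjustment. edgeR 4.0.16 and DESeq2 1.42.0 (510 genes without an adjusted p) were alternatives, beside those in the closing section. The fit was tested on simulated data. A count of 0 allows up to 3 reads, 0.0391 to 0.0793 ppm, for counting error only. Same-numbered sham and OHT libraries did not deviate together (Pearson r across genes 0.08, -0.02 and -0.05), so the numbers were not used as pairs. Transcript lengths and GC content are of the longest GENCODE M21 protein-coding transcript, and promoters and gene neighbours are from RefSeq.

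Values per library are given for the 2 members per role of highest ppm per kb, the 4 per direction of smallest p, and members without overlap; lists give the 3 highest genes in ppm and the 2 of smallest p. Values of some listed genes are not reported here. The members and lists were chosen with earlier results of these data known.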

Additional observations from a re-analysis of the deposited data

How the results depend on the processing

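Over 16 alternatives 0 members passed the adjusted threshold, with a smallest adjusted p of 0.0924 (DESeq2) to 0.906 (without sham 2). Calls over all genes, 0 with limma, were 250 with DESeq2, 2 with a replicate block, and 0 to 17 when 1 library was left out, of which 12 without sham 1 and 17 without sham 3; the cause was not tested. The median log2 difference of the members was 0.38 as reported and with the replicate block, 0.15 (without sham 2) to 0.64 (without sham 3) when 1 library was left out, 0.32 with TMM factors, 0.22 after quantile normalization and -0.07 relative to the microglia markers, a scaling chosen after seeing the data. The median over all genes was -0.12 as deposited, -0.19, 0.01 and -0.58 under these 3 scalings. Members higher at an unadjusted p under 0.05, 7 as reported, were 3 after quantile normalization, 1 (without sham 2) to 10 (without OHT 3) when 1 library was left out and 1 relative to the microglia markers, where 1 was also lower.

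Of 40 members 23 kept their sign under all 15 alternatives but the scaling to microglia markers, which shifts every gene of a library alike. Ifi44 was -0.01 with TMM factors. After quantile normalization Irf7 was -0.03, Irf9 -0.05, Oas2 0.35, Gbp7 -0.19 and Igtp -0.13. With edgeR Oasl2 was 0.07 and Gbp3 -0.04, and with DESeq2 Oasl2 was 0.12 and Oas2 0.05. Relative to the microglia markers Ifit1 and Slfn2 were -0.07, Ifit2 -0.06, Irf7 -0.22, Irf9 -0.25, Stat2 -0.29, Ifi44 -0.40, Trim25 and Gbp7 -0.37, Parp9 -0.12, Gbp3 -0.32, Irgm1 -0.27, Igtp -0.33 and Adar -0.30. When 1 library was left out, 16 members changed sign: Adar (-0.07 to 0.44), Dtx3l (-0.93 to 0.21), Gbp2 (-0.44 to 0.65), Gbp3 (-0.11 to 0.57), Gbp7 (-0.14 to 0.42), Ifi44 (-0.54 to 0.84), Ifih1 (-0.41 to 0.27), Igtp (-0.09 to 0.32), Irf1 (-0.43 to 0.19), Irf7 (-0.40 to 0.87), Irgm1 (-0.14 to 0.82), Oas1a (-0.01 to 0.77), Oas2 (-0.85 to 0.79), Oasl2 (-0.81 to 0.60), Slfn5 (-0.28 to 1.10) and Trim25 (-0.33 to 0.91). The cause of these changes was not tested. The members' sum in the cultures, 605 ppm, was 680 ppm of the total without its 20 highest genes and 589 to 621 ppm when 1 culture was left out. Depth limits the culture levels of Mx1, Slfn5 and Oas2, which rest on 3, 1 and 4 reads.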
